A study of Mus musculus with 8 samples.

Results

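The genes examined are 9 members of the synaptic adhesion machinery, chosen by name from 21938 protein-coding mouse genes: the neurexins Nrxn2 and Nrxn3, the neuroligins Nlgn1, Nlgn2 and Nlgn3, the leucine-rich repeat proteins Lrrtm1 and Lrrtm2, the cadherin Cdh13 and the neurexin relative Cntnap2. Their open chromatin was profiled by ATAC-seq, whose transposase cuts DNA where it is accessible, so that fragments pile up there. All libraries came from SN4741, immortalised mouse cells taken from the substantia nigra of embryos and kept dividing by a T antigen that works at the lower temperature, under a fragment of the tyrosine hydroxylase promoter. The series holds 4 libraries from undifferentiated cells at 37 °C in 10% FBS and 4 from cells held at 39 °C in 0.5% FBS for 48 h to differentiate, each made from 50000 cells of this 1 line. Temperature and serum changed together and cannot be told apart, the study describes the line as polyploid and unstable, and the labels do not say whether libraries came from separate cultures, so p-values below measure only the spread between these libraries. The data are 8 lists of peaks, 1 per library, with no read counts per region, and each locus was taken as the gene with 20 kb on each side.

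Neurexins sit mostly on the presynaptic membrane, and each neurexin gene makes long alpha proteins from a promoter at its start and short beta proteins from a promoter inside the gene. Neuroligins and LRRTM proteins are postsynaptic partners that bind neurexins across the cleft, and they help to set the kind and strength of a synapse. Cntnap2 encodes CASPR2, which clusters potassium channels beside the node of Ranvier, and Cdh13 encodes T-cadherin, a cadherin held in the membrane by a lipid anchor in place of a cytoplasmic tail.

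The 4 lists at 37 °C held 74026 to 92013 peaks and the 4 at 39 °C held 54845 to 68410, without overlap, so in counts of all peaks list length and temperature cannot be told apart. The main comparisons are therefore also given with equal numbers of peaks, in which the 54845 peaks with the highest −log10 q of each list were kept. The caller kept 169 M and 158 M fragments in replicates 1 and 4 at 37 °C and 49.8 to 71.2 M in the other 6 libraries. Promoters of 4 of 7 neural precursor markers, 4 of 5 neuron markers and 4 of 4 mesenchymal markers were called in all 8 libraries, against 0 of 2 endothelial, 0 of 3 microglial and 1 of 3 oligodendrocyte lineage markers, and Fabp7, Cdh5, Cx3cr1 and Olig2 had no promoter peak in any library. Pecam1, Aif1, Csf1r, Sox10, Sox1 and Syt1 were each called in 4 libraries at 37 °C and 3 at 39 °C, and Hes5 in 2 and 0. The part of other cell types in the results below was not tested.

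The sequences that mark the main results are shown first, each 200 bases long, read 5′ to 3′ on the strand of its gene from the GRCm38.p6 (mm10) reference of RefSeq. Capitals mark matches to a motif from a list of 10, searched on both strands with no mismatch. The first pair sets the 5′ end of Nrxn3, where no library had a peak, beside the internal start of its short form, where all 8 did. The capitals in the former are an E-box, CAGCTG, which 10.96% of the 48607 start sites of coding genes hold in the same window, and the latter matched no motif.
Nrxn3 5′ end, chr12:88722676-88722875, plus strand: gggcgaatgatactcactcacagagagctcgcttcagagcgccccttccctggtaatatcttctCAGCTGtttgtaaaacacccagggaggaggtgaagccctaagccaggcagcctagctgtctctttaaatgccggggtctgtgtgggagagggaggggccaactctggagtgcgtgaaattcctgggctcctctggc
Nrxn3 short form, chr12:89812283-89812482, plus strand: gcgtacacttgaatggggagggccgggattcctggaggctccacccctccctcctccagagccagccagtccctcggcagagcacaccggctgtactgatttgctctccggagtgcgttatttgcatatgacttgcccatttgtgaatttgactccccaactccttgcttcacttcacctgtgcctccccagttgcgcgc

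The next pair lies before the first starts of Nlgn2, the highest-ranked promoter of the group in every library, and of Cntnap2, where no library had a peak. The Nlgn2 window holds 2 matches to the SP/KLF motif GGGCGGGG, found upstream of 10.4% of all start sites. The Cntnap2 window holds an E-box and, nearer to the start, a match to RE1, the element bound by the repressor of neuronal genes REST, which 21 of 48607 start sites (0.0432%) hold there.
Nlgn2, chr11:69837785-69837984, minus strand: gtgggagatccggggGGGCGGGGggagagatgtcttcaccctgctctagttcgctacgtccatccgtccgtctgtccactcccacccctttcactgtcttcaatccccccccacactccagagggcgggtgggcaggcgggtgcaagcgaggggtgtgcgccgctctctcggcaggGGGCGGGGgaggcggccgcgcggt
Cntnap2, chr6:45059157-45059356, plus strand: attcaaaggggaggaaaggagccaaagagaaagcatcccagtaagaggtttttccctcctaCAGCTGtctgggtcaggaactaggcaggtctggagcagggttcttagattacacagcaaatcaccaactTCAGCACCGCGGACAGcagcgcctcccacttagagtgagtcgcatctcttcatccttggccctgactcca

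The remaining windows are centred on the summits of regions that differed between the temperatures: 1 in a Cdh13 intron called only at 39 °C with all peaks and in lists of equal length, the Cdh13 intronic region whose rank was most raised at 39 °C in lists of equal length, and, with all peaks, 1 in an Nlgn1 intron and 1 in an Nrxn2 intron called only at 37 °C and 1 downstream of Nrxn2 called only at 39 °C. The capitals are a Forkhead motif, TGTTTAC, followed by an AP-1 motif, TGACTCA or TGAGTCA, in the first, an AP-1 motif in the Nlgn1 region and in the Nrxn2 region called at 37 °C, and an E-box in the last. The second matched none. The other Nrxn2 regions called only at 37 °C with all peaks, not shown, also matched none. The Nlgn2 and Nlgn3 regions called only at 37 °C held no AP-1 motif. Over all regions called only at 37 °C, 17.8% held the AP-1 motif, and of those called only at 39 °C 21.8% did, beside 24.2% of all consensus regions.
Cdh13, called only at 39 °C, chr8:118837620-118837819, plus strand: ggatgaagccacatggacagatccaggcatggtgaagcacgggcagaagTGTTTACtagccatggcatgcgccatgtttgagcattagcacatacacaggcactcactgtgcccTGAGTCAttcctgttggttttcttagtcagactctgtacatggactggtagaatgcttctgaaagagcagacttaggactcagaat
Cdh13, rank higher at 39 °C, chr8:118827645-118827844, plus strand: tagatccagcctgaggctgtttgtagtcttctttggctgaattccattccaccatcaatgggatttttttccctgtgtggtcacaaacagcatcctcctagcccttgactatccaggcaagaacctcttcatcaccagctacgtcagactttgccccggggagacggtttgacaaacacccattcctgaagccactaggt
Nlgn1, called only at 37 °C, chr3:25563292-25563491, minus strand: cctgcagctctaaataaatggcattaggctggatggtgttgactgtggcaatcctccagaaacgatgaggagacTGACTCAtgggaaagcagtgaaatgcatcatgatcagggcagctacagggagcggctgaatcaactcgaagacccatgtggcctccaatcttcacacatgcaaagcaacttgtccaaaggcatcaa
Nrxn2, called only at 37 °C, chr19:6519640-6519839, plus strand: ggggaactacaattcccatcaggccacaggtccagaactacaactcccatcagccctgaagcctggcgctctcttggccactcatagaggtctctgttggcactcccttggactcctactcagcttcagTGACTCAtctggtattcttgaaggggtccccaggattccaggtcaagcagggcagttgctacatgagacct
Nrxn2, called only at 39 °C, chr19:6549957-6550156, plus strand: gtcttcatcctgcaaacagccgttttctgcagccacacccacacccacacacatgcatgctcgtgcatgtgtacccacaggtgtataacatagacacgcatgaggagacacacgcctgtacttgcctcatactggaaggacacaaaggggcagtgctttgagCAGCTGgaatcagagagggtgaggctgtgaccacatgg

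The loci of the 9 genes differed widely in how many peaks they held. Nrxn2 was dense, with a mean of 16.9 peaks per 100 kb over the 8 libraries, above 92.5% of coding genes with a peak, and Nlgn2 followed at 11.7. Cntnap2, 2244.9 kb long, had 0.0657 peaks per 100 kb, at the 0.120 percentile of those genes, and Lrrtm1 had no peak in any library, as had 3601 (16.4%) of coding genes. Very long genes are sparse in general. Among the 230 coding genes of at least 500 kb the median was 0.604 peaks per 100 kb, and Cdh13 with 2.58 stood at the 84.4 percentile, Nrxn3 with 0.552 at 47.4, Nlgn1 with 0.449 at 41.3 and Cntnap2 at 13.0.

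Nrxn2, on chr19:6418731-6544169, had fewer peaks at 39 °C. Its locus held 31, 34, 35 and 41 peaks in replicates 1 to 4 at 37 °C and 20, 21, 23 and 19 at 39 °C. The lowest library at 37 °C lay above the highest at 39 °C. At 37 °C the density was 21.3 ± 2.54 peaks per 100 kb (SD, n = 4), and at 39 °C it was 12.5 ± 1.03 (SD, n = 4), a difference of −8.77 with p = 0.0286 by a two-sided exact permutation test, the smallest p that 4 against 4 libraries allow. Adjusted by Benjamini-Hochberg over the 18337 coding genes with a peak, p was 0.120, and no gene passed 0.05 after adjustment, while 4375 did without it. The counts overlapped with equal numbers of peaks, at 18, 15, 18 and 18 peaks at 37 °C and 14, 14, 17 and 19 at 39 °C (exact permutation p = 0.514, adjusted p = 1).

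Nlgn2, on chr11:69823122-69837784, also had fewer, with 8, 7, 8 and 13 peaks at 37 °C and 4, 4, 4 and 3 at 39 °C. Nlgn3, on chrX:101299168-101325963, had 4, 4, 3 and 4 against 2 in each library at 39 °C. For both genes the groups did not overlap (exact permutation p = 0.0286, adjusted p = 0.120), and for both they overlapped with equal numbers of peaks, at 3 or 4 against 3 peaks for Nlgn2 and 2 or 3 against 2 for Nlgn3. For Nlgn3 they also overlapped without peaks within 1 kb of another gene's start, where the difference was −1.12 per 100 kb (exact permutation p = 0.143). The other loci overlapped with all peaks. Nrxn3 held 9, 10, 8 and 10 peaks at 37 °C and 9, 9, 10 and 8 at 39 °C, Nlgn1 6, 4, 3 and 5 against 4 in each library, Lrrtm2 3, 4, 4 and 4 against 4, 4, 4 and 2, and Cntnap2 3, 1, 0 and 3 against 1, 2, 1 and 1. With all peaks, 3 of the 8 genes with a peak were lower at 39 °C without overlap and 0 were higher, beside 23.6% lower and 0.300% higher among all coding genes with a peak. When each density was divided by the length of its list, the same 3 genes were lower without overlap, beside 12.8% of coding genes, and Cdh13 and Nrxn3 were higher, beside 18.5%.

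**Figure D1:**
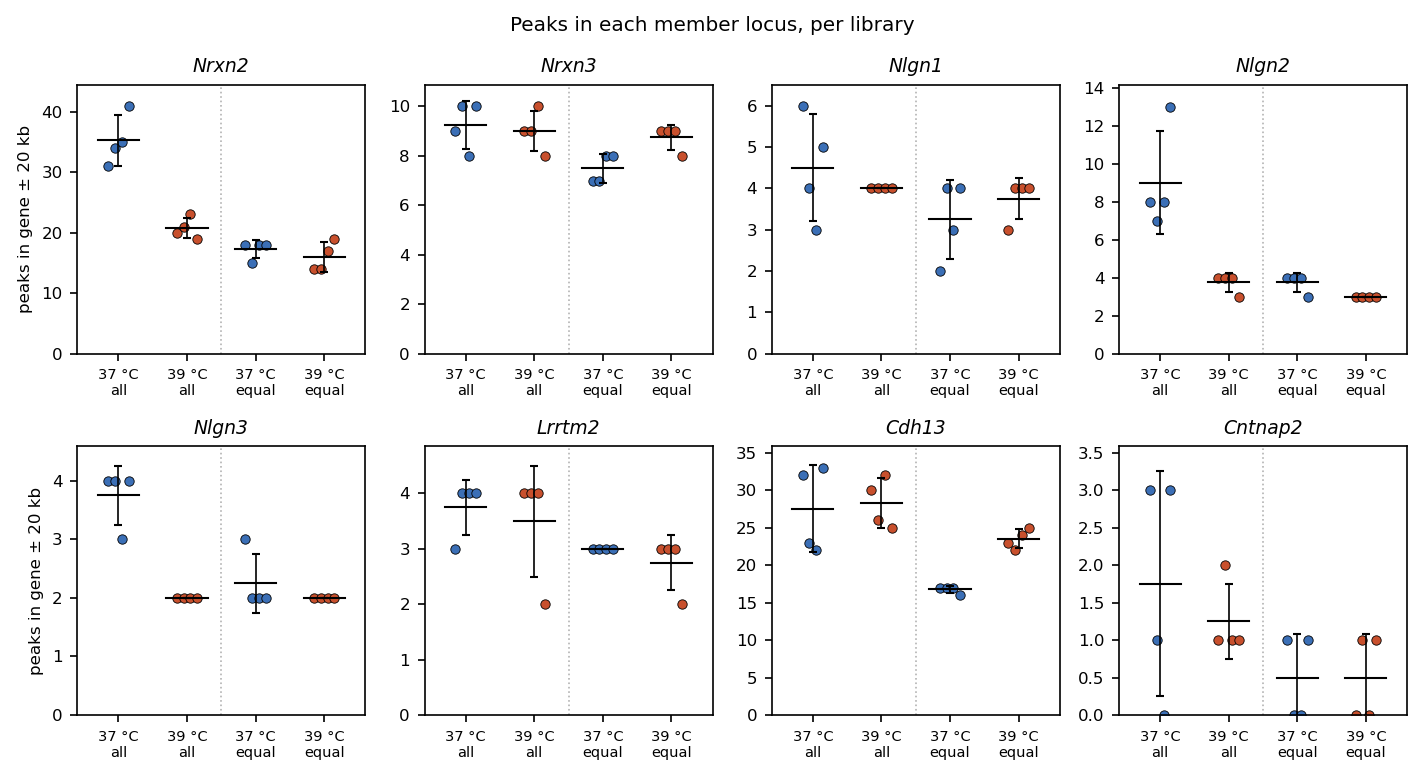
Number of peaks in each locus (gene and 20 kb on each side) for every library, with all peaks and with equal numbers of peaks per list; points are libraries, bars the mean and SD of 4, and Lrrtm1, with no peak, is left out. Nrxn2, Nlgn2 and Nlgn3 are lower at 39 °C without overlap only with all peaks, while Cdh13 holds 16 or 17 peaks at 37 °C and 22 to 25 at 39 °C with equal numbers.

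Cdh13, on chr8:118283733-119324921, held more peaks at 39 °C once list length was held equal. Lists of equal length differ in their lowest −log10 q. With a −log10 q of at least 5 in every list instead, the Cdh13 density turned slightly lower at 39 °C, as given in the last section. With all peaks its locus held 32, 23, 22 and 33 peaks at 37 °C and 30, 26, 32 and 25 at 39 °C, and the highest counts at 37 °C were those of the 2 deepest libraries. Lists of equal length gave 17, 17, 17 and 16 at 37 °C and 23, 22, 24 and 25 at 39 °C, without overlap. The density was 1.55 ± 0.0463 at 37 °C and 2.17 ± 0.119 at 39 °C (peaks per 100 kb, SD, n = 4 each), a difference of 0.624 (exact permutation p = 0.0286, adjusted p = 0.317). It lay between 0.578 and 0.671 when each library was left out in turn, and was 0.601 when only the 6 libraries under 100 M fragments were compared. It was 1 of the 8 genes with a peak that was higher and 0 were lower by this measure, beside 3.38% higher and 5.64% lower among the 17758 coding genes with a peak in these lists.

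Promoter peaks, which overlap the 1 kb around a start site and may have their summit outside it, differed between members and between the start sites of 1 gene. Start sites of 1 gene less than 1 kb apart were chained into 1 group, numbered from the 5′ end, which gave 33 groups in the 9 genes. Of these, 6 were called in all 8 libraries, 16 in none and 11 in some. Of the 48607 groups of all coding genes, 16899 were called in all 8 and 25267 in none. The 6 groups of the members belonged to Nrxn2, Nrxn3, Nlgn2 and Cdh13. Thus 4 of 9 genes had a promoter peak in every library, beside 59.9% of coding genes.

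Nrxn3, on chr12:88722876-90334935, had no peak in any library at its 5 upstream groups. Group 3 starts its longest coding sequence, of 1571 codons, while none of the transcripts from groups 1 and 2 is annotated as protein-coding. Its group 6, 1089607 bp downstream of the first, starts transcripts with a coding sequence of 567 codons, the short form, and was called in all 8. Its peak ranked at the 71.4, 71.4, 68.0 and 73.0 percentile of its list at 37 °C and at the 53.8, 55.4, 58.6 and 45.1 at 39 °C, 100 being the best peak. Every library at 39 °C lay below every library at 37 °C, with a difference of −17.7 percentile points between the means (70.9 ± 2.11 and 53.2 ± 5.76, SD, n = 4 each, exact permutation p = 0.0286, adjusted p = 0.0524). In lists of equal length the ranks were 56.1, 59.8, 56.8 and 54.7 against 44.6, 46.9, 48.3 and 45.1, still without overlap, and the difference was −10.6 (exact permutation p = 0.0286, adjusted p = 0.114).

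Nrxn2 had promoter peaks at both kinds of start. Groups 1 and 2, for long transcripts of up to 1703 and 1710 codons, and group 7, 78940 bp further in and coding for up to 660 codons, were called in all 8 libraries. Group 1 ranked at 85.5 to 86.6 at 37 °C and 82.1 to 85.2 at 39 °C, and with equal numbers of peaks its difference turned to 2.00 points higher (exact permutation p = 0.229). Group 2 ranked at 63.2, 56.5, 51.8 and 64.1 at 37 °C and at 37.1, 34.3, 43.6 and 22.1 at 39 °C, and was also lower without overlap with equal numbers, by a difference of −14.7 points (exact permutation p = 0.0286, adjusted p = 0.114). Group 7 ranked at 42.7, 47.2, 38.7 and 51.6 against 30.8, 15.7, 28.03 and 12.7, and was absent from the equal-length list of replicate 2 at 39 °C.

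The peaks that cover the first starts of Nlgn2 and Cdh13 were among the strongest of every list. That of Nlgn2 group 1 ranked at 97.9 to 99.4 at 37 °C and 98.3 to 99.01 at 39 °C, with its summit 245 to 470 bp from the start. That of Cdh13 group 1 ranked at 96.5 to 98.9 and 97.4 to 98.7, but it is a broad peak in a region of 9813 bp, and its summit lay 2805 to 2905 bp past the start, in an intron. The summits at Nrxn2 groups 1 and 7 and Nrxn3 group 6 lay at most 251 bp from a start, and those at Nrxn2 group 2 lay 613 to 900 bp away. The region at Nlgn2 group 1 also covers the start of Tmem256, and that at Nrxn2 group 1 the start of Gm14965, each on the other strand. These peaks therefore cannot be assigned to Nlgn2 or Nrxn2 alone. Of the 6 groups called everywhere, 4 ranked lower at 39 °C without overlap and 0 higher, beside 54.0% and 0.550% of all such start sites. In lists of equal length 5 were left, of which 2 were lower and 0 higher, beside 17.1% and 8.03%.

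**Figure D2:**
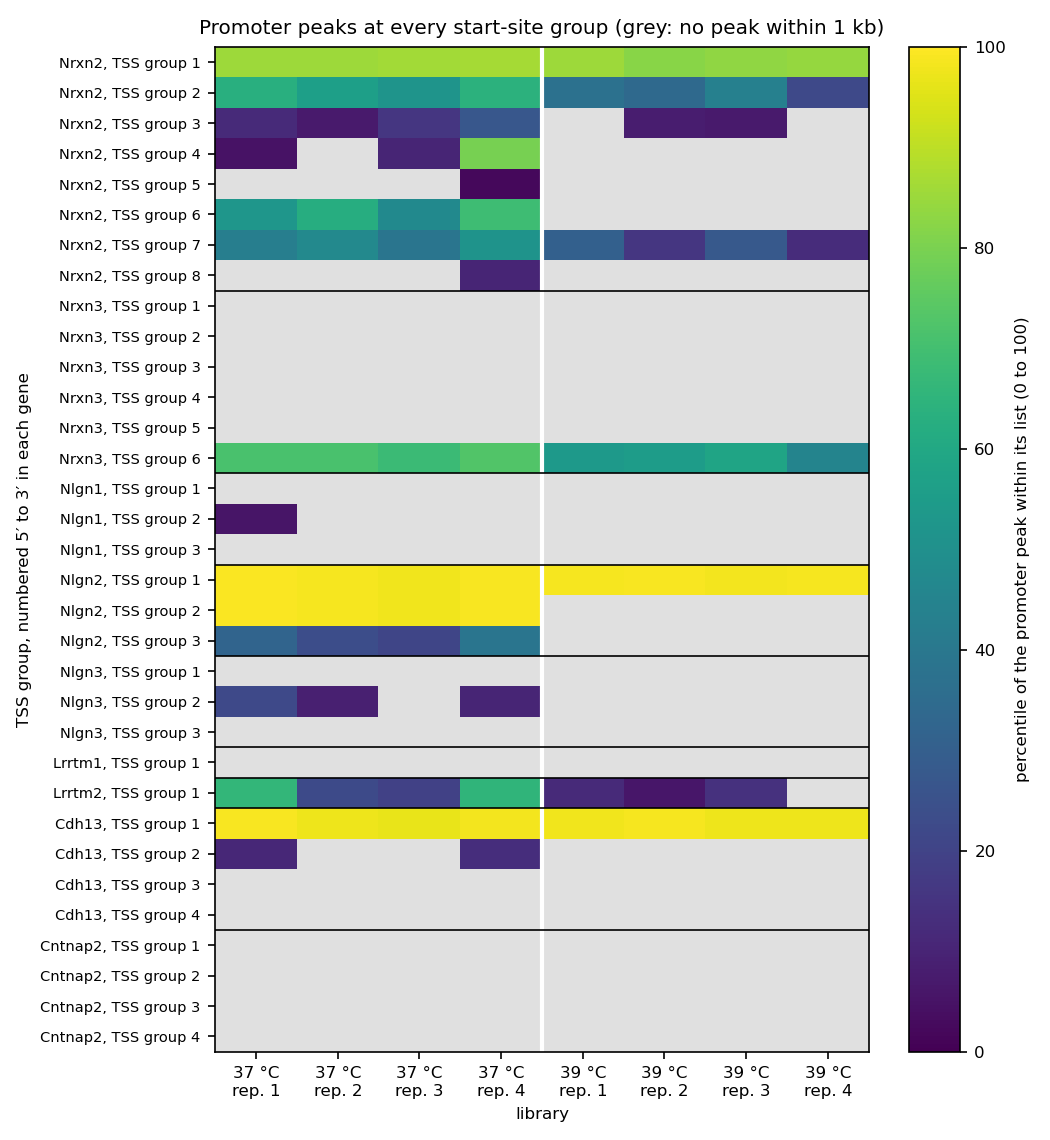
Percentile of the strongest peak within 1 kb of each of the 33 start-site groups (rows, numbered 5′ to 3′ within a gene) in each of the 8 libraries (columns), with grey where no peak was called. Of the Nrxn3 groups only group 6 is coloured, Lrrtm1 and Cntnap2 are grey throughout, and Nlgn2 group 1 and Cdh13 group 1 stay at the top of the scale in all 8, for Cdh13 through a broad peak with its summit 2805 to 2905 bp past the start.

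Among the 17 groups with a peak in any library, 3 were called in all 4 libraries at 37 °C and in none at 39 °C, and 0 the reverse, beside 5.36% and 0.0214% of the 23340 start-site groups of coding genes with a peak (Fisher's exact test, p = 0.0286 each, adjusted p = 0.5305). They were Nlgn2 groups 2 and 3 and Nrxn2 group 6. At Nlgn2 group 2 the edge of the strong peak at group 1 reached the window in all 4, and replicates 1, 3 and 4 also had a weak peak there, at ranks of 4.13, 2.74 and 11.3. The strong peak was 4840, 3805, 4080 and 4720 bp wide at 37 °C and 3293, 2738, 2794 and 3053 bp at 39 °C. Nrxn2 group 6 was likewise reached by the edge of a peak just after it that all 8 libraries called, and in replicates 2 and 4 at 37 °C also by the edge of a stronger peak before it, ranked at 62.2 and 69.1. The peak after it had a width of 2137, 2015, 1868 and 1977 bp at 37 °C and 879, 954, 984 and 314 bp at 39 °C. Nlgn2 group 3, which like Nrxn2 group 6 starts only a non-coding transcript, had its summit 417 to 533 bp away in the 4 libraries. It alone was left of the 3 when the window was narrowed to 500 bp. In lists of equal length it had no peak in any library, while Nlgn2 group 2 and Nrxn2 group 6 were still called in 4 libraries at 37 °C and 0 at 39 °C. They were 2 of the 10 groups with a peak in those lists, and 0 had the reverse, beside 2.04% and 0.269% of the 20060 such groups of coding genes.

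The other start sites of Nrxn2, all of non-coding transcripts, were called in fewer libraries, group 3 in 4 at 37 °C and 2 at 39 °C, group 4 in 3 and 0, and groups 5 and 8 in 1 and 0. Group 2 of Cdh13 was called in 2 and 0, and its groups 3 and 4 in none. The first start of Nlgn3 had no promoter peak in any library, and its group 2, 1306 bp further in, had a weak one in 3 libraries at 37 °C and in 0 at 39 °C. Nlgn1, on chr3:25426215-26332460, had a promoter peak only in replicate 1 at 37 °C, at the 5.55 percentile. Lrrtm2, which lies inside Ctnna1 on the opposite strand and shares the region with a Ctnna1 start, was called in 4 libraries at 37 °C and 3 at 39 °C. Lrrtm1, on chr6:77242689-77257791 inside Ctnna2, and all 4 groups of Cntnap2, on chr6:45059357-47304213, had none. The start sites called in every library were rich in CpG, with 4.1 to 9.5 CpG per 100 bp within 500 bp of the start, where the median was 5.50 over the 16899 start-site groups of coding genes called in all 8 libraries and 1.00 over the 25267 called in none. The 5 starts of Nrxn3 with no called peak had 0.500 to 1.80, but Lrrtm1 had 5.50 and Cntnap2 group 3 had 4.60 with no peak.

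Peaks of all libraries merged into 122 regions in the 9 loci, of which 107 were consensus regions, called in at least 2 libraries. Of the 107, 47 were called in all 8, beside 52.9% of all consensus regions. By place, 16 lay at a start site of the member itself, 68 in its introns, 2 in its exons and 21 in the flanks. Peaks within introns, counted by summits over 1 kb from any start, numbered 17, 17, 16 and 23 in Nrxn2 at 37 °C and 9, 9, 11 and 9 at 39 °C (exact permutation p = 0.0286, adjusted p = 0.242). The corresponding counts were 29, 21, 20 and 30 against 29, 25, 30 and 23 in Cdh13, and 8, 9, 7 and 9 against 8, 8, 9 and 7 in Nrxn3. Nrxn2 was thus 1 gene lower without overlap and 0 were higher, beside 11.4% and 0.413% of the 10164 coding genes with an intronic peak. The Nrxn2 difference shrank with equal numbers of peaks from −6.98 to −0.399 per 100 kb. In those lists Cdh13 held 15, 15, 15 and 14 intronic peaks at 37 °C and 22, 21, 22 and 23 at 39 °C, a difference of 0.696 per 100 kb (exact permutation p = 0.0286, adjusted p = 0.354). It was the 1 member higher without overlap and 0 were lower, beside 3.91% and 4.17% of the 7911 coding genes with an intronic peak there.

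Of the 107 consensus regions, 40 were called by more libraries at 37 °C, 15 by more at 39 °C and 52 by as many, where all consensus regions gave 37.9% and 5.46% for the first 2 counts. Of the 66 consensus regions in lists of equal length, 10 were called by more libraries at 37 °C, 13 by more at 39 °C and 43 by as many, where all 59041 such regions gave 17.45% and 10.31%. Restricted regions, called in all 4 libraries of 1 temperature and none of the other, numbered 8 at 37 °C and 2 at 39 °C, beside 6.04% and 0.314% of the 84777 consensus regions (Fisher's exact test, p = 0.0286 each, adjusted p = 0.450). Without replicate 3 at 37 °C, the shallowest library, the former count was 13, beside 10.42% of all consensus regions. These counts became 1 and 5 with equal numbers of peaks, beside 2.67% and 1.92% of all consensus regions there. None of the 8 regions restricted to 37 °C with all peaks was called 4 against 0 in those lists, where 5 of the 8 had no peak in any library, and of the 2 restricted to 39 °C, 1 was. The 1 region restricted to 37 °C in lists of equal length, chr19:6536464-6537978 in an Nrxn2 intron, was called in 4 libraries at 37 °C and 1 at 39 °C with all peaks.

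With all peaks Nrxn2 held 5 of the 8 regions restricted to 37 °C, 3 in introns and 1 in each flank, that upstream at a start of the neighbour Rasgrp2. All were weak. The strongest, chr19:6551945-6552778, 8378 bp past the end of the gene, ranked at 41.2, 23.7, 31.7 and 46.4 in its lists. In the intronic regions chr19:6499904-6500839, chr19:6510583-6511733 and chr19:6519124-6520644 and the upstream chr19:6407935-6409517 the rank was at most 24.1. The 1 region restricted to 39 °C, at chr19:6549711-6550475, lay 5888 bp past the gene and ranked at 6.78, 21.2, 22.7 and 9.28. In lists of equal length the strongest was called in 3 libraries at 37 °C and 0 at 39 °C, the other 4 restricted to 37 °C in none, and the last in 0 and 3. Over the locus 19 regions were called by more libraries at 37 °C and 2 by more at 39 °C with all peaks, and 5 and 2 with equal numbers. All peaks covered 23.5% to 35.7% of it at 37 °C and 11.2% to 15.2% at 39 °C. This share was not computed in lists of equal length or over all genes.

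The 3 neuroligins held 1 region restricted to 37 °C each with all peaks, which in lists of equal length was called in 3 libraries at 37 °C for Nlgn1, 0 for Nlgn2 and 1 for Nlgn3, and in 0 at 39 °C. That of Nlgn1, chr3:25563231-25563634, was an intronic region ranked at 34.7, 34.95, 30.5 and 46.1. That of Nlgn2 was at its group 3, and that of Nlgn3, chrX:101285461-101286130, lay at a start site of the neighbouring gene Med12. Nlgn1 also held an intronic region, chr3:26160098-26160911, called in all 4 libraries at 39 °C, at ranks of 44.8, 34.9, 34.9 and 31.1, and in only the 2 deepest at 37 °C, at 17.99 and 12.9, which with equal numbers of peaks became 4 and 0. No promoter of a neighbour was called in the Nlgn1, Nrxn3 or Cntnap2 window. In that of Nlgn2 a promoter of Tnk1 was called in 4 libraries at 37 °C and 0 at 39 °C, that of Tmem102 in 4 and 1, that of Gm39566 in 1 and 0 and that of Plscr3 in 4 and 4. In that of Nrxn2 promoters of Rasgrp2, Slc22a12, Gm14965 and Gm14964 were called in all 8 libraries and that of AC167245.1 in 2 and 0. In that of Cdh13 the promoter of Hsbp1 was called in all 8, at chr8:119343445-119345916 near the end of the downstream flank, and is counted among the Cdh13 regions.

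Nrxn3 held 11 consensus regions, 10 of them in introns away from its starts. Besides the short-form promoter, 3 of the 6 called in all 8 libraries had their summits 17246, 22441 and 30639 bp downstream of it. A region in the intron upstream, chr12:89742213-89743034, was called in all 4 libraries at 39 °C, at ranks of 53.8, 47.7, 49.7 and 37.0, and in 1 at 37 °C, at 23.7, which in lists of equal length became 4 and 0. Cntnap2 had 3 consensus regions in all, 1 of them intronic, and none was called in every library.

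**Figure D3:**
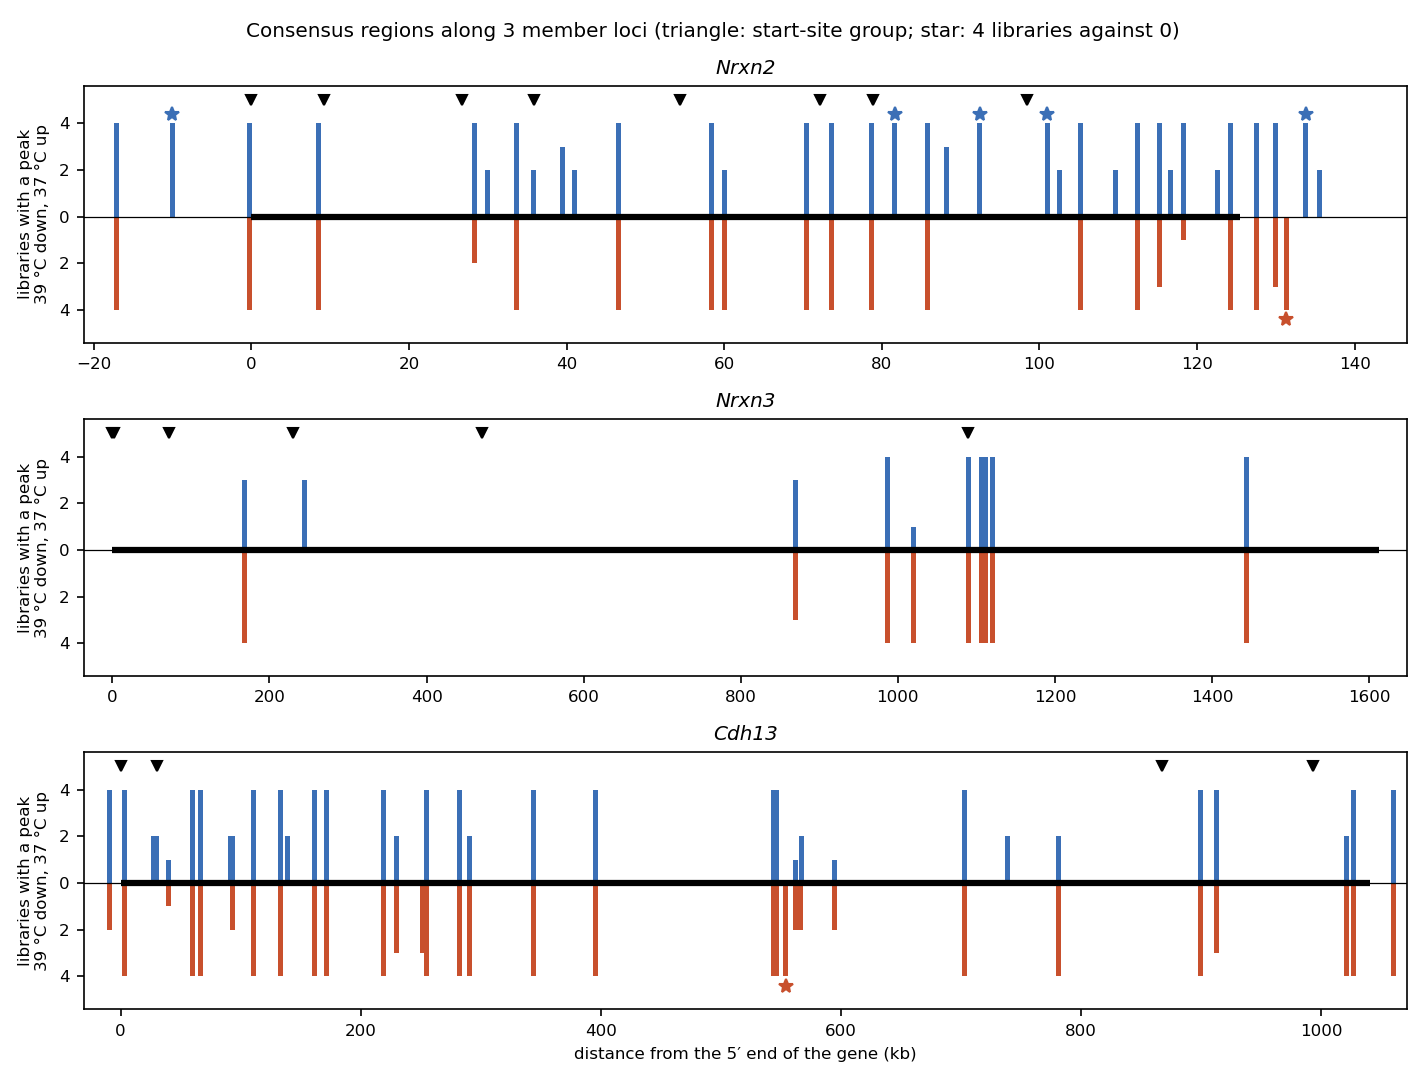
Consensus regions along Nrxn2, Nrxn3 and Cdh13 by distance from the 5′ end of the gene (kb; thick line, gene); bars give the number of libraries with a peak at 37 °C (up) and 39 °C (down), triangles start-site groups and stars regions called in 4 libraries against 0. With all peaks, as drawn, stars at 37 °C are confined to Nrxn2 among these 3 loci, the long stretch of Nrxn3 before its short-form start holds few regions, and Cdh13 has regions along its whole length.

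Cdh13 held 37 consensus regions, 33 of them intronic away from its starts. Of the 37, 18 were called in all 8 libraries, beside 52.9% of all consensus regions. With all peaks 8 regions were called by more libraries at 37 °C, 9 by more at 39 °C and 20 by as many. Of the 23 in lists of equal length, 1 was called by more at 37 °C, 7 by more at 39 °C and 15 by as many. The region restricted to 39 °C, chr8:118837386-118837847, lies in an intron 553987 bp from the start and ranked at 26.1, 36.0, 41.2 and 28.8. In lists of equal length it was still restricted, and 3 of 23 regions were restricted to 39 °C and 0 to 37 °C, beside 1.92% and 2.67% of all. The other 2, chr8:118573983-118574908 and chr8:118626418-118628237, were called at 37 °C in 2 and 4 libraries with all peaks.

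Cdh13 regions called in all 8 libraries more often ranked higher than lower at 39 °C in lists of equal length, and more often lower with all peaks, where 5 of 18 were lower without overlap and 1 higher, beside 54.2% and 0.798% of all regions called in all 8. With equal numbers of peaks 7 of 15 ranked higher at 39 °C without overlap and 2 lower, beside 15.5% and 22.5% of the 41177 such regions of all loci. The largest shift was at chr8:118826126-118828241, in an intron 544012 bp from the start, which ranked at 44.6, 47.1, 46.6 and 45.0 at 37 °C and at 64.5, 64.7, 64.6 and 65.0 at 39 °C, a difference of 18.9 points (exact permutation p = 0.0286, adjusted p = 0.0752). With all peaks its ranks overlapped, at 60.5 to 67.3 and 65.0 to 71.7. The region at chr8:118986269-118987766 differed by 15.5 points, at 55.7, 53.3, 49.1 and 52.9 against 66.9, 69.1, 71.0 and 66.0. In the other direction chr8:118678713-118680442 differed by −11.5 points. The median over the 15 regions was 4.16 points, beside −0.465 over all 41177.

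In Nrxn2 and Nrxn3 more regions ranked lower at 39 °C than higher. With equal numbers of peaks the median difference was −3.62 points over 12 regions of Nrxn2 and −3.55 over 6 of Nrxn3. Of these, 4 and 3 were lower without overlap, and 1 region of Nrxn2 was higher. The median was −3.61 over 2 regions of Nlgn1, −7.21 over 2 of Lrrtm2, −0.514 over 2 of Nlgn3 and 0.235 over 3 of Nlgn2. Over all members 11 of 42 regions were lower and 8 higher, near the 22.5% and 15.5% of all such regions, whose median was −0.465. With all peaks, on lists of unequal length, 28 of 47 were lower and 1 higher, beside 54.2% and 0.798% of the 44861 regions called in all 8. The 1 higher was the Cdh13 region at chr8:118626418-118628237, with ranks of 31.7, 23.7, 12.3 and 34.9 at 37 °C and 48.6, 48.9, 41.2 and 43.1 at 39 °C.

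**Figure D4:**
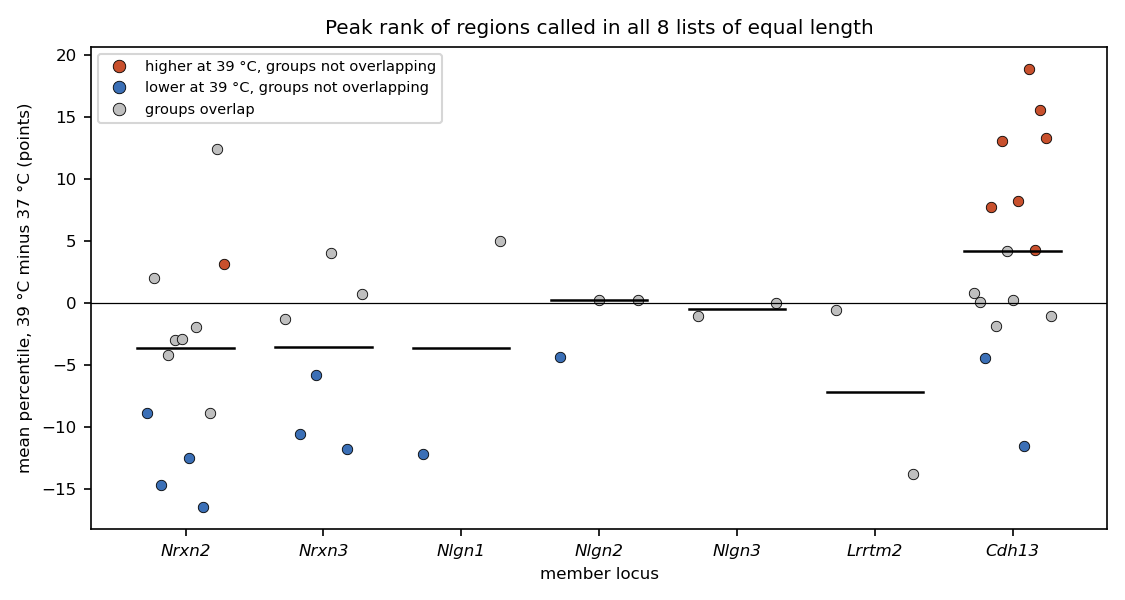
Difference in mean percentile, 39 °C minus 37 °C (points), of each region called in all 8 lists of equal length, by locus; each point is 1 region, the line the median of the locus, and colour marks whether the 4 libraries of each temperature overlapped. Of the points without overlap, Cdh13, with 15 regions, has 7 of the 8 higher at 39 °C. Nrxn2 with 12 regions and Nrxn3 with 6 have 7 of the 11 lower. Over all 41177 such regions 15.5% were higher and 22.5% lower without overlap.

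The AP-1 motif, bound by Fos and Jun proteins, was the most frequent of the 10 searched, within 100 bp of the summit in 31 of 107 regions (29.0%), beside 24.2% of all consensus regions. It was found in 10 of 35 regions of Nrxn2, 11 of 37 of Cdh13, 4 of 11 of Nrxn3, 4 of 5 of Nlgn1, 1 of 4 of Nlgn3, 1 of 3 of Lrrtm2, 0 of 9 of Nlgn2 and 0 of 3 of Cntnap2. Of the others, the E-box was in 19 of the 107 regions, beside 15.2% of all, and the RUNX motif in 12, beside 9.89%. The TEAD motif ACATTCC was in 9, 6 of them in Cdh13, beside 6.30%, and the p53 decamer in 9, 5 of them in Cdh13, beside 7.25%. The Forkhead motif was in 5, 4 of them in Cdh13, beside 2.88%. The SP/KLF motif was in 5, beside 5.58%, and the CTCF core motif in 3, beside 3.72%. RE1 and the CRE motif of cyclic AMP-responsive promoters were in none of the 107 summit windows, beside 0.156% and 0.613% of all consensus regions.

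A further 89 genes of synaptic adhesion, in 7 lists of other neurexin partners, presynaptic LAR receptors, latrophilin partners, contactins, immunoglobulin proteins, cadherins and scaffolds, give the setting. Of these, 69 had a peak in their locus, and 45 had a start site called in all 8 libraries, beside 59.9% of coding genes. No promoter peak was called in 34, a count with no share over all coding genes to set beside it. In locus density 8 of the 69 were lower at 39 °C without overlap and 0 higher, beside 23.6% and 0.300% of coding genes with a peak. With equal numbers of peaks 5 were lower and 3 higher, beside 5.64% and 3.38%. The largest of the 8 were Flrt1, which binds latrophilins, from 18, 21, 21 and 25 peaks to 7, 6, 8 and 4, Ptprs, a presynaptic receptor phosphatase, from 26, 22, 20 and 32 to 10, 9, 11 and 8, and Cntnap1, a relative of Cntnap2 at the node of Ranvier, from 12, 11, 12 and 14 to 6 in each library. Flrt1 and Cntnap1 were still lower without overlap with equal numbers of peaks, while the Ptprs difference turned from −14.9 to 1.44 per 100 kb, with overlap. Of their 96 start-site groups with a peak in any library, 5 were called in 4 libraries at 37 °C and 0 at 39 °C, 2 in Ptprs and 1 each in Ntrk3, Tenm2 and Tenm4, and 0 had the reverse, beside 5.36% and 0.0214% of those of all coding genes.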

How the data were processed

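ATAC-seq peak lists of 8 SN4741 libraries, 4 at each temperature, were analysed. Per the study's methods the authors aligned reads to mm10 with Bowtie2 (2.4.1), filtered them with SAMtools (1.15.1) and Picard (2.26.11), and called peaks in each library separately with MACS3 (3.0.0a7), per the file headers at a q threshold of 0.05. The deposited files give per peak a pileup signal at the summit, −log10 p and −log10 q, and a fold enrichment ratio over 1 background for the whole genome of each library, since the headers state that the local one was disabled. Per the file headers the caller kept 49.8 to 169 M fragments per library. No region counts were used, so no count model was fitted, depth limits which weak peaks were called, and an uncalled region may still be accessible.

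Genes came from GENCODE M21 on mm10. Scripts in Python 3.11.15 (numpy 2.4.6, pandas 2.3.3, scipy 1.17.1) counted peaks overlapping each gene and 20 kb on each side, peaks within 1 kb of start sites, and regions merged from all lists, of which those called in at least 2 libraries were consensus regions. Ranks are percentiles of −log10 q within a list, which with 1 background per library have the order of the fold enrichment by construction. Densities and ranks were compared by a two-sided exact permutation test over the 70 assignments of 4 against 4 libraries, and presence by Fisher's exact test. Adjustment followed Benjamini and Hochberg over all genes, start-site groups or regions. All members, their start-site groups and their regions called in 4 libraries of 1 temperature and 0 of the other were named, with neighbours that had a promoter peak in the window. Further adhesion genes were named for a start site called 4 against 0, or as the 3 with the largest difference in locus density in each direction among those without overlap. Other regions described were chosen after their values were seen. Members and lists were chosen with earlier results of these data known. The scripts were tested on simulated data. Alternatives covered list length, the q threshold, windows, flanks, depth, a replicate block and leaving out each library. Reference sequence was read from RefSeq's GRCm38.p6.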

Additional observations from a re-analysis of the deposited data

Results flagged for a closer look

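Among 36 groups of 4 libraries, counts of peaks in a locus or in introns, 8 held 1 library set apart from the other 3 by a gap larger than Dixon's critical share of the range, where chance sets apart about 1 in 20 groups. These are small whole numbers, and the gap is the whole range wherever the other 3 libraries share 1 value, as in 6 of the 8. At 37 °C the library apart held 13 peaks in the Nlgn2 locus (replicate 4, the others 7 or 8), 3 in the Nlgn3 locus (replicate 3, the others 4), 3 in the Lrrtm2 locus (replicate 1, the others 4) and 23 intronic peaks in Nrxn2 (replicate 4, the others 16 or 17). At 39 °C it held 3 peaks in the Nlgn2 locus and 2 in the Lrrtm2 locus (replicate 4, the others 4 in both), 2 in the Cntnap2 locus (replicate 2, the others 1) and 11 intronic peaks in Nrxn2 (replicate 3, the others 9). Replicate 4 held the longest list at 37 °C, of 92013 peaks, and the shortest at 39 °C, of 54845. The part of list length in these counts was not tested.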

How the results depend on the processing

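Of 465 values recomputed under other settings, 389 kept their direction and side of the threshold or, for counts, their size. Of the rest, 32 no longer passed, 5 newly passed, 25 reversed and 14 moved. Passing meant an unadjusted p under 0.05, which no value could reach with a replicate block or with the 6 shallower libraries. Of the 288 values that left out 1 library 267 stayed the same. Of the 177 others 122 stayed the same, 24 no longer passed, 3 newly passed, 15 reversed and 13 moved. With equal numbers of peaks, 0 loci were lower at 39 °C and 1 higher, and regions called at 1 temperature only numbered 1 at 37 °C and 5 at 39 °C. Per 10000 peaks of the list 3 loci were lower, beside 12.8% of genes with a peak, and 2 higher, Cdh13 and Nrxn3, beside 18.5%. With the 6 libraries under 100 M fragments, where no p under 0.0667 is possible, 3 loci were lower and 1 higher, beside 27.04% and 1.345% of genes with a peak, and 7 regions were called only at 39 °C, beside 1.157% of all. Regions called only at 37 °C numbered 5 at −log10 q of at least 5 and 5 where regions were built from the 100 bp to either side of each summit, which left 1 called only at 39 °C. Start-site groups called only at 37 °C numbered 1 within 500 bp and 1 with protein-coding transcripts alone, and those in every library 11 within 5 kb.

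Some differences reversed. With equal numbers of peaks they were 0.0757 (Nrxn3) and 0.0528 (Nlgn1) in locus density, 0.0775 and 0.0552 in intronic density, and 2.00 (Nrxn2 group 1) and 0.251 (Nlgn2 group 1) in promoter rank. Per 10000 peaks they were 0.0172 (Nrxn3, without overlap), 0.00942 (Nlgn1) and 0.174 (Lrrtm2). With the 6 shallower libraries they were 0.0528 (Nlgn1) and 0.0328 (Cntnap2) in locus density, 0.0552 (Nlgn1, intronic) and 0.366 (Nlgn2 group 1). The Cdh13 locus gave −0.0231 at −log10 q of at least 5 and −0.0438 with flanks of 50 kb. The cause was not tested.

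Leaving out each library in turn gave 3 lower and 0 higher loci throughout, 8 to 13 regions called only at 37 °C and 2 to 3 only at 39 °C, 3 to 4 start-site groups called only at 37 °C and 6 to 7 in every library, in 4 to 5 genes. Reversals fell within −0.100 to 0.239 (Cdh13 locus), −0.0404 to 0.00504 (Nrxn3 locus), −1.09 to 0.543 (Lrrtm2 locus), −0.0414 to 0.00517 (Nrxn3 introns), −0.368 to 0.111 (Nlgn2 group 1) and −0.340 to 0.464 (Cdh13 group 1). The alternatives with equal numbers of peaks and 1 further change were chosen after seeing the data. The labels do not say whether libraries of the same replicate number form a pair. The deviations of same-numbered libraries correlated at 0.0930, −0.00662, 0.0502 and −0.0783, which cannot show whether they shared a culture. With a replicate block the differences of Nrxn2 (−8.77), Nlgn2 (−9.60) and Nlgn3 (−2.62) had p = 0.125 by an exact sign-change permutation test, the smallest it allows, and all 4 differences had 1 sign in 3 lower and 0 higher loci.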
